A study of Homo sapiens with 33 samples.

Results

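Transcript levels were compared between THP-1 cells treated with all-trans retinoic acid (RA) at 20 nM for 2 h and THP-1 cells given vehicle only. THP-1 is an established human monocytic leukaemia line that grows as immature, monocyte-like cells. The comparison was chosen from the sample titles and took 2 arrays after 2 h of RA and 8 vehicle arrays, 10 of the 33 arrays of the series. Each array was made from total RNA of a separate culture well, so p-values measure the spread between wells of this line. The vehicle was 0.1% ethanol. Titles call all 8 vehicle arrays 0 h controls, while their treatment notes give a harvest at 16 h for 5 wells and at 40 h for 3 wells. No vehicle well was harvested at 2 h, so an effect of RA and an effect of a shorter time in culture cannot be told apart here. Later RA wells of the time course numbered 2 (6 h), 3 (16 h) and 2 (40 h, with RA added again at 16 h). The comparison addresses which transcripts respond earliest to RA in these cells.

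Retinoic acid is the active form of vitamin A. It binds retinoic acid receptors, which sit on DNA as pairs with retinoid X receptors, often at direct repeats of a short half-site, and turns nearby genes on without the need for new protein. In myeloid leukaemia cells RA is known for promoting differentiation, and genes such as CD38, TGM2 and the RA-degrading enzyme CYP26A1 are widely used as readouts of receptor activity.

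Levels are given in scaled signal units, a linear scale on which the median of the 12502 genes tested was set to 216 on every array. The 2 RA arrays correlated across genes at r = 0.967, and pairs of vehicle arrays at 0.919 to 0.962. The lowest possible signal was reached by 1697 and 2357 probe sets on the RA arrays and by 168 to 1398 on the vehicle arrays, and the array median before scaling was 24.4 and 22.1 units on the RA arrays against 24.8 to 35.6 on the vehicle arrays. In 8 exact two-sided permutation tests on array quality and marker sums, the number of probe sets at the lowest signal had p = 0.0222, the smallest that 2 arrays against 8 allow, and none passed adjustment (smallest adjusted p = 0.178). A set of 10 markers of THP-1 and monocytic leukaemia cells had a median vehicle level of 2730 units and summed to 26385 and 21307 units after RA, against 19302 to 26727 in vehicle. Markers of other lineages were mostly low, with median vehicle levels of 17.1 units for 11 lymphocyte genes, 19.9 for 9 erythroid and megakaryocyte genes and 20.1 for 12 epithelial and fibroblast genes, and none of the 12 tested among them was called. Single members differed, with vehicle medians of 192 units for NKG7 and 185 for EPOR, and of 37.4 for MPO in the monocytic set. In bulk RNA, a change in the share of a cell type and a change in RNA per cell cannot be told apart.

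After 2 h of RA, 84 genes were higher and 24 were lower than in vehicle. These are 0.672% and 0.192% of the 12502 genes tested (limma, Benjamini-Hochberg adjusted p under 0.05). Both RA arrays lay above every vehicle array for 83 of the 84 genes that rose and below every one for all 24 that fell. Over all genes tested, 3.65% lay above and 2.97% below all vehicle arrays in this way. The exception was CCL2, a monocyte-attracting chemokine, at 437 and 297 units after RA against 95.9, 139 and 332 units (lowest, median and highest) in vehicle. Lack of overlap was a condition for naming most of the called genes further on, so stating it for them adds no support. The median rise was 1.01 on the log2 scale, 43 genes rose at least 2-fold and 11 at least 4-fold. The median fall was -0.92, and 10 genes fell at least 2-fold and 6 at least 4-fold, all 6 of them dim genes named further on. The median over all genes tested was -0.01.

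The split into rises and falls depended on the scale. Of the calls, 77.8% were rises when arrays were centred on the median of the genes tested, and 97.2% (105 rises and 3 falls) when they were left centred on the median of all probe sets, as deposited. On the deposited scale the median of all genes tested lay at 0.31. All 84 rises were called on either scale, while 3 of the 24 falls were. Genes of the highest vehicle level, above 5000 units, had a median log2 fold change of -0.26 over 244 genes and no call, while the 1625 genes between 1000 and 5000 units had a median of 0.04. Quantile normalization kept 75 of the 84 rises and 18 of the 24 falls.

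**Figure D1:**
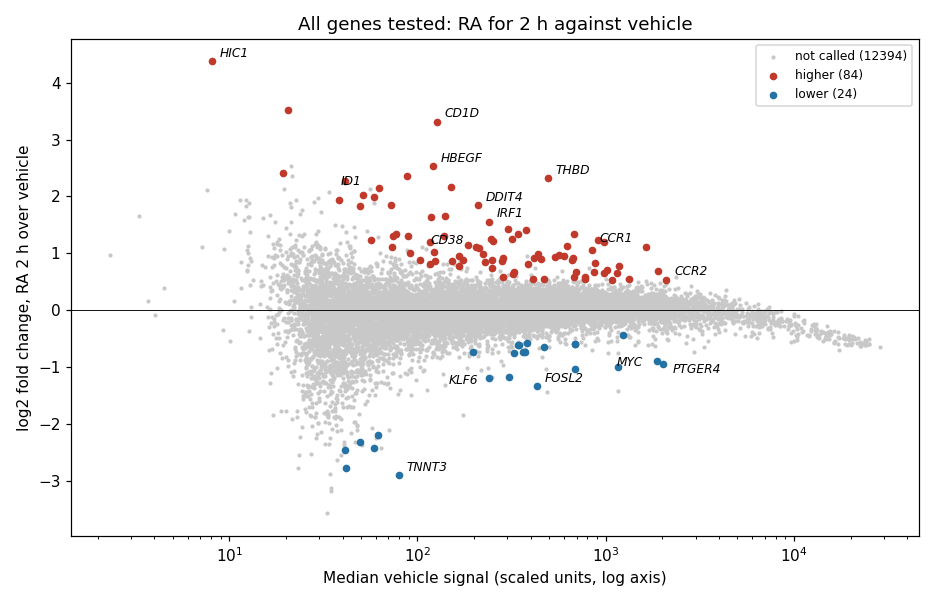
Log2 fold change after 2 h of RA over vehicle (vertical axis) against the median vehicle level in scaled signal units (horizontal log axis) for 12502 genes. Red points are the 84 genes called higher, blue points the 24 called lower and grey points the rest. Rises spanned the range of levels up to about CCR2, and several of the largest falls were of genes with a low vehicle level.

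CD1D had the clearest change of the comparison. It encodes a surface molecule of the CD1 family that presents lipids to natural killer T cells. CD1D stood at 1261 and 1260 units after RA, against 94.4, 126 and 173 units (lowest, median and highest) in vehicle. Both RA arrays were far above the whole vehicle range. The log2 fold change was 3.31 ± 0.15 (SE), or 9.90-fold, with an adjusted p of 2.9e-12, and it was called without either RA array and without each vehicle array.

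HIC1 had the largest fold change among genes that were called. It encodes a zinc-finger transcriptional repressor that is silenced by methylation in many cancers. HIC1 measured 145 and 106 units after RA, against 1.41, 8.09 and 26.4 units in vehicle. The RA levels were below those of the median gene, and the vehicle levels were near the bottom of the signal range, so the size of the fold is uncertain. The log2 fold change was 4.37 ± 0.82 with an adjusted p of 0.0052, and 2.78 when the median of the gene's probe sets was used. The other probe set of HIC1 was below the level at which genes were tested. The call rested on having both RA arrays, with adjusted p = 0.224 without replicate 1 and 0.114 without replicate 2. It was also lost in a fit of only the 2 h and vehicle arrays (adjusted p = 0.297). The same was so with a replicate block (0.288) and without an intensity trend (0.0543).

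RefSeq promoter windows (GRCh38.p14, 250 bases before to 50 after a transcription start) were available for 87 of the 108 called genes, HIC1 not among them. They were searched on both strands for direct repeats of AGGTCA, in which the opening A could be G, the second G could be T and the C could be G, with a spacer of 5 bases, the arrangement best known for retinoic acid receptors. Such a repeat occurred in 0.342% of 35116 windows and in 27 of 10156 tested genes with a window (0.266%). Among the called genes it occurred in 2 of 68 that rose, CD1D and BATF2, and in 0 of 19 that fell. A spacer of 2 bases gave 1 match among the rises, in ALOX5AP, against 0.197% of tested genes, and a spacer of 1 base gave 0 among the rises, against 0.571%. CD1D has 2 windows, and the repeat was in the upstream one, 205 bases before the transcription start on which that window is set. Both windows lie inside the annotated gene, which begins at position 158178030 of chromosome 1. A match describes the letters of the window and is no evidence of binding. The sequence before that transcription start is shown because CD1D led the response (chr1:158179697-158179946, plus strand), with the half-sites in capitals.
CD1D: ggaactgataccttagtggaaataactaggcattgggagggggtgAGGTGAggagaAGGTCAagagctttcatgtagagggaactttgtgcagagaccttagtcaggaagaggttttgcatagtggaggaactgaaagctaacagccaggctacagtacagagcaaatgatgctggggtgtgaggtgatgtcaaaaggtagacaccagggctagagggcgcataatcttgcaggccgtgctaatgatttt

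The repeats are set side by side with those found in the same way in the windows of RARB and CYP26A1, both long known as direct RA targets. Each reads 5′ to 3′ on the strand that holds the repeat, with the half-sites in capitals and the spacer in lower case. The positions are chr1:158179742-158179758 on the plus strand for CD1D, chr11:64990290-64990306 on the minus strand for BATF2, chr3:25428210-25428226 on the plus strand for RARB and chr10:93073803-93073819 on the minus strand for CYP26A1.
CD1D: AGGTGAggagaAGGTCA
BATF2: AGTTCAtgtgaGGGTCA
RARB: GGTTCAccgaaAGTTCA
CYP26A1: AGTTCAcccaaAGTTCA

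RARB and CYP26A1 themselves, despite these repeats, were too dim to be tested. CYP26A1 had 4.93 and 9.18 units after RA, against 2.25, 7.10 and 16.5 in vehicle. RARB had 26.8 and 20.2 units after RA, against 2.95, 18.7 and 43.0 in vehicle, and CYP26B1, a related RA hydroxylase, had 5.55 and 8.39 against 1.00, 2.48 and 16.0. All 3 overlapped vehicle.

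Genes that make, carry and sense RA were examined next. Of 27 genes of retinoid metabolism and transport, 12 were tested and 0 were called, and 2 had an unadjusted p under 0.05 in the limma fit. With 0.672% of all genes called higher and 0.192% lower, a count of 0 among so few genes does not set them apart. DHRS3, which reduces retinaldehyde back to retinol, had 172 and 161 units after RA against 7.78, 56.1 and 114 in vehicle. Both RA arrays were above every vehicle array, but the log2 difference of 2.13 ± 0.59 was not called (adjusted p = 0.124), although it was on the deposited scale (2.44, adjusted p = 0.0111). At 6 h it was 4.17 and called, with an adjusted p of 4.7e-05. Among 13 receptors and cofactors tested, 1 was called. RARA, the main RA receptor of myeloid cells, was at 200.0 and 220.2 units after RA and 172, 204 and 301 in vehicle, a difference of -0.03 ± 0.18. RXRA differed by -0.11 ± 0.21 and RARG, which was dim, by -0.06 ± 0.87, and both overlapped vehicle.

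The cofactor that rose was NRIP1 (RIP140), a corepressor recruited by RA-bound receptors. NRIP1 had 745 and 817 units after RA, against 326, 414 and 551 in vehicle, with no overlap. Its log2 fold change was 0.92 ± 0.16 (adjusted p = 0.0019), and the call was lost without RA replicate 2 (adjusted p = 0.138).

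Several genes that rose encode proteins of the cell surface and its surroundings. HBEGF, a membrane-anchored ligand of the epidermal growth factor receptor, stood at 698 and 670.2 units after RA against 90.7, 120.3 and 161 in vehicle, a 5.76-fold rise (log2 2.53 ± 0.19, adjusted p = 1.67e-08). THBD, thrombomodulin, which binds thrombin and turns it into an activator of protein C, was the brightest of the large rises. THBD had 2562 and 2411 units after RA against 396, 493 and 651 in vehicle (log2 2.32 ± 0.15, adjusted p = 1.78e-09). ITGA6, an integrin subunit for laminin binding, had 256 and 288 units after RA against 44.6, 72.3 and 112 in vehicle (log2 1.86 ± 0.23, adjusted p = 2.7e-05). Lack of overlap was a condition for naming these 3 genes. Each was called whichever of the 10 arrays was left out.

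CD38, CCR1 and CCR2 rose by less. Of 21 tested monocyte and macrophage surface genes, CCR1 and CCR2 were the 2 called, beside 0.672% higher and 0.192% lower over all genes. The median log2 difference of the list was -0.06. CD38, an ectoenzyme that consumes NAD and a classical marker of RA action in myeloid cells, had 402 and 456 units after RA against 133, 205 and 256 in vehicle (log2 1.11 ± 0.18, adjusted p = 0.000795). Its call was lost without RA replicate 2 (adjusted p = 0.0871). The chemokine receptor CCR1 had 1908 and 1718 units after RA against 771, 848 and 985 in vehicle (log2 1.06 ± 0.11, adjusted p = 4.62e-06). CCR2, the receptor for CCL2, had 3252 and 2983 units after RA against 2004, 2103 and 2464 in vehicle (log2 0.53 ± 0.12, adjusted p = 0.0265). CCR1 was called without each of the 10 arrays. CCR2 was not called without RA replicate 1 (adjusted p = 0.616), without RA replicate 2 (0.193), or without vehicle replicate 3 at 16 h or replicate 4 at 40 h (0.0518 and 0.0527).

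Among signalling and effector proteins of phagocytes, FGR, a SRC-family kinase, had 311 and 338 units after RA against 150.3, 165 and 206 in vehicle (log2 0.96 ± 0.13, adjusted p = 8.18e-05). NCF1, a subunit of the NADPH oxidase, had 1029 and 1015 units after RA against 614, 677 and 786 in vehicle (log2 0.58 ± 0.12, adjusted p = 0.0193). NCF1 was the 1 called of 16 tested granule and antimicrobial genes, beside 0.672% higher and 0.192% lower over all genes. That list had a median of -0.10. NCF1 has near-identical pseudogene copies that the probe sets may not separate. ALOX5AP, which hands arachidonic acid to 5-lipoxygenase, had 2002 and 1530 units after RA against 878, 1019 and 1321 in vehicle (log2 0.71 ± 0.16, adjusted p = 0.0229). All 3 genes lay above every vehicle array, as their naming required. Only FGR kept its call without either RA array, while the adjusted p without replicates 1 and 2 was 0.384 and 0.268 for NCF1 and 0.916 and 0.0621 for ALOX5AP. NOTCH2, a receptor of the Notch pathway, had 1381 and 1400 units after RA against 699, 870.5 and 1018 in vehicle (log2 0.68 ± 0.12, adjusted p = 0.00404), and it too was lost without replicate 1 (0.114) or 2 (0.14).

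Transcription factors were among the early rises. IRF1, an activator first known from interferon signalling, had 686 and 646 units after RA against 163, 239 and 268 in vehicle (log2 1.55 ± 0.14, adjusted p = 5.21e-07). ID1, which blocks the DNA binding of basic helix-loop-helix factors, had 171 and 172 units after RA against 18.2, 51.1 and 69.1 in vehicle (log2 2.03 ± 0.42, adjusted p = 0.0135). CEBPB, a leucine-zipper factor of monocyte differentiation, had 2028 and 1843 units after RA against 1170, 1330 and 1624 in vehicle (log2 0.55 ± 0.12, adjusted p = 0.027). IRF1 was called without each of the 10 arrays. ID1 and CEBPB were not called without RA replicate 1 (adjusted p = 0.292 and 0.637) or replicate 2 (0.256 and 0.193). CEBPE, a granulocyte factor known as an RA target in promyelocytic cells, differed by -0.07 ± 0.41 and overlapped vehicle.

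DDIT4, an inhibitor of mTOR complex 1 that responds to stress, had 729.6 and 802 units after RA against 158, 210.0 and 317 in vehicle (log2 1.85 ± 0.17, adjusted p = 4.58e-07). NDRG1, a stress-responsive cytoplasmic protein, had 1023 and 1007 units after RA against 307, 377 and 490.0 in vehicle (log2 1.42 ± 0.13, adjusted p = 7.15e-07). TRIB1, a pseudokinase that promotes the breakdown of CEBPA protein, had 296 and 436 units after RA against 81.6, 119 and 153 in vehicle (log2 1.63 ± 0.20, adjusted p = 2.7e-05). The RA arrays of these genes were all above the vehicle range, as their naming required. TRIB1 was 0.72 and not called when the median of its probe sets was taken (adjusted p = 0.888). Its 2 other probe sets were both below the level at which genes were tested.

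RHOBTB3 rose by 2.35 ± 0.14 on the log2 scale, the histone gene H2AC25 by 2.16 ± 0.18, and PLEKHO1, a pleckstrin-homology protein, by 2.15 ± 0.43. STX11, a syntaxin of granule release, rose by 2.00 ± 0.27, ARHGAP12 by 1.66 ± 0.20, and FAM43A by 1.43 ± 0.18. None of the 6 overlapped vehicle, which was a condition for naming them. PLEKHO1 was not called without RA replicate 1 (adjusted p = 0.272) or 2 (0.182), and H2AC25 was 1.61 and not called with the median of its probe sets (adjusted p = 0.287).

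**Figure D2:**
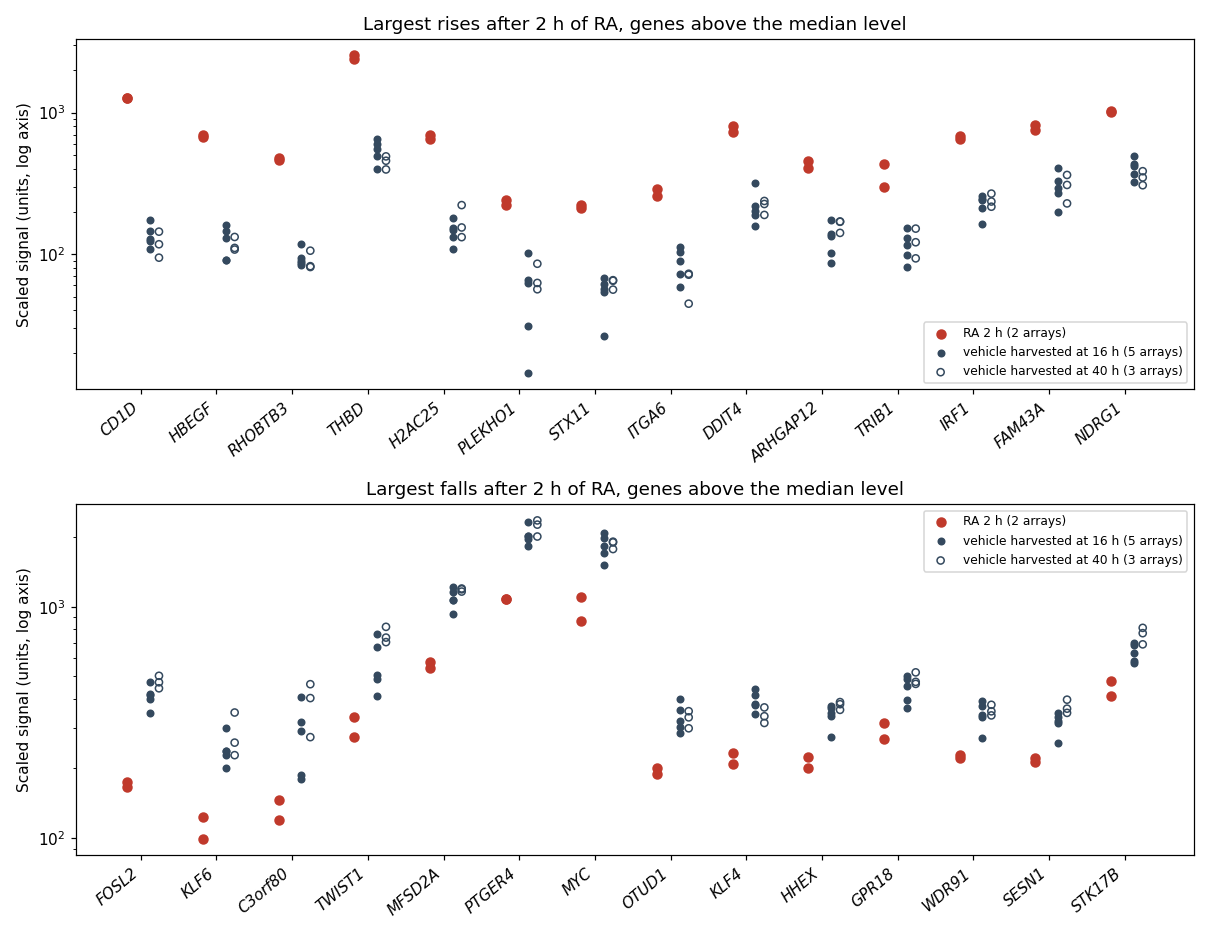
Level of the 14 largest rises (top) and the 14 largest falls (bottom) after 2 h of RA among called genes without overlap whose higher group averaged at least the median gene's 216 units, in scaled signal units on a log axis. Dimmer genes with larger fold changes, such as HIC1, STOX2 and TNNT3, are not drawn. Each red point is 1 of 2 RA arrays, each filled point 1 of 5 vehicle arrays harvested at 16 h and each open point 1 of 3 vehicle arrays harvested at 40 h. For all 28 genes both RA points lie outside the range of the vehicle points, as the choice of genes required.

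Fewer genes fell than rose, and FOSL2 had the smallest adjusted p among the falls. FOSL2, a subunit of the AP-1 factor, had 174 and 166 units after RA against 346, 433 and 503 in vehicle (log2 -1.34 ± 0.14, adjusted p = 1.62e-06). FOSL2 was the only one of the 15 named falls that was also called on the deposited scale (-1.03, adjusted p = 0.00768), and it was called without each of the 10 arrays. MYC, a driver of growth and proliferation, had 1104 and 872 units after RA against 1524, 1869 and 2085 in vehicle (log2 -0.90 ± 0.13, adjusted p = 0.000323). KLF6, a Krüppel-like factor, had 124 and 99.0 units after RA against 200.0, 239 and 349 in vehicle (log2 -1.19 ± 0.18, adjusted p = 0.000489). Both RA arrays were below all vehicle arrays for each gene. Without RA replicate 2, neither MYC (adjusted p = 0.0915) nor KLF6 (0.0871) was called. KLF6 was -0.43 and not called with the median of its probe sets (adjusted p = 0.762).

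KLF4, a related factor of monocyte differentiation, had 208 and 234 units after RA against 315, 371 and 442 in vehicle (log2 -0.74 ± 0.14, adjusted p = 0.00413). TWIST1, a basic helix-loop-helix factor, fell by 1.04 and HHEX, a homeobox factor of blood development, by 0.73. None of these 3 was called without RA replicate 1 (adjusted p = 0.272, 0.0579 and 0.272 in that order) or replicate 2 (0.0609, 0.343 and 0.064).

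After FOSL2, PTGER4 and MFSD2A had the smallest adjusted p of the falls. PTGER4, a receptor for prostaglandin E2, had 1085 and 1084 units after RA against 1827, 2019 and 2365 in vehicle (log2 -0.95 ± 0.11, adjusted p = 1.66e-05). MFSD2A, a transporter of lysophospholipids, had 578 and 545 units after RA against 928, 1164 and 1217 in vehicle (log2 -1.0 ± 0.13, adjusted p = 4.77e-05). Both were called without each of the 10 arrays but not on the deposited scale (adjusted p = 0.169 and 0.137), and PTGER4 was -0.56 with the median of its probe sets (adjusted p = 0.797).

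With the median of each gene's probe sets, 4 of all 15 named falls kept their call, and STK17B was -0.12 (adjusted p = 0.936). C3orf80, GPR18 and SESN1 lost their call in this setting although each has 1 probe set (adjusted p = 0.121, 0.137 and 0.168). The count thus does not reflect the choice of probe set alone. Among all called genes, other probe sets bright enough for testing had the gene's sign in 71 of 76 cases for rises and 27 of 28 for falls. There were 7 other named falls. OTUD1, a deubiquitinase, fell by 0.76, GPR18, a G protein-coupled receptor, by 0.65, WDR91, an endosome protein, by 0.62, SESN1, a p53-induced sestrin, by 0.61, STK17B, a kinase, by 0.60, C3orf80 by 1.18 and TNFSF10, the death ligand TRAIL, by 0.73. None kept its call without RA replicate 1 (adjusted p from 0.133 for OTUD1 to 0.872 for GPR18) or replicate 2 (from 0.182 for GPR18 to 0.726 for STK17B). OTUD1 was called without each vehicle array. The other 6 each lost their call without some vehicle arrays, from 3 of 8 for STK17B and TNFSF10 and 4 for WDR91 to 6 for GPR18 and C3orf80 and 7 for SESN1, with adjusted p up to 0.0901.

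The 6 falls of at least 4-fold, noticed after their values were seen, were of dim genes. TNNT3, a skeletal muscle troponin, had 9.66 and 7.90 units after RA against 16.5, 79.3 and 122 in vehicle, and MATN4, CCNO, SPACDR, YPEL1 and ZNF554 were also below 36 units on both RA arrays. More probe sets were at the lowest signal on the RA arrays, as given above, and the part of this in these falls was not tested. Rises noticed in the same way included STOX2, at 192 and 188 units after RA against 1.32, 20.5 and 44.1 in vehicle, and MAFF, a small MAF transcription factor, at 170.3 and 186 against 24.2, 41.2 and 46.9. BATF2, a basic leucine-zipper factor and carrier of the other repeat shown above, had 169 and 157 units after RA against 18.2, 49.8 and 84.1 in vehicle (log2 1.83 ± 0.36, adjusted p = 0.00804). SLC2A5, the fructose transporter GLUT5, had 2085 and 2145 units after RA against 768, 909 and 1009 in vehicle (log2 1.23 ± 0.12, adjusted p = 7.29e-07).

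Gene lists placed these changes in the wider biology. Over all genes tested, 0.672% were called higher and 0.192% lower. Of 26 tested RA response genes of myeloid cells, 8 rose (CD1D, THBD, FGR, CD38, NRIP1, HIC1, ID1 and NCF1) and TNFSF10 fell, with a median log2 difference of 0.58 against -0.01 over all genes. The list was drawn up with earlier results of these data known. TGM2, transglutaminase 2 and a member of it, had 47.4 and 62.1 units after RA against 4.01, 19.6 and 37.4 in vehicle, above all vehicle arrays but dim and not called (2.13 ± 0.69, adjusted p = 0.259).

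Of 29 tested immediate early genes, 0 rose and 4 fell, FOSL2, MYC, KLF6 and KLF4, and the median was -0.08. On the deposited scale 1 of them, FOSL2, was called. FOS had 219.9 and 184 units after RA against 251, 314 and 379 in vehicle, and EGR1 376 and 267 against 179, 262 and 340.1, and neither was called. None of 36 cell cycle genes was called (limma; 1 had an unadjusted p under 0.05), and their log2 differences ran from -0.32 to 0.33. With 0.672% of all genes called higher and 0.192% lower, a count of 0 does not set apart lists of this size or smaller. None of 18 sterol and fatty acid synthesis genes was called (5 with an unadjusted p under 0.05), with a median of -0.35, and none of 21 phosphatases and feedback inhibitors (2 with an unadjusted p under 0.05), with a median of 0.04.

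The interferon response list had the lowest median of the 22 lists, -0.55 over 24 tested genes, with 0 falls called and IRF1 as its 1 rise. Against vehicle at 40 h alone, 205 of the 12502 genes tested were higher and 144 lower. In that setting 9 of the 24 interferon genes and 6 of the 18 sterol and fatty acid genes were called in either direction. With all 8 vehicle arrays these counts were 1 and 0. Of 23 myeloid and stem cell transcription factors, 5 were called against vehicle at 40 h alone and 2 with all 8 vehicle arrays. MX1 had 4.52 and 39.4 units after RA against 12.8, 70.8 and 116 in vehicle, and overlapped. In the other lists at most 2 genes were called in either direction, beside 0.672% higher and 0.192% lower over all genes. CCL2 was the only 1 of 17 NF-kB targets and cytokines, ID1 of 22 TGF-beta, BMP, SMAD and ID genes, NOTCH2 of 15 Notch pathway genes, DDIT4 of 23 stress genes and ALOX5AP of 21 lipid-handling genes.

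**Figure D3:**
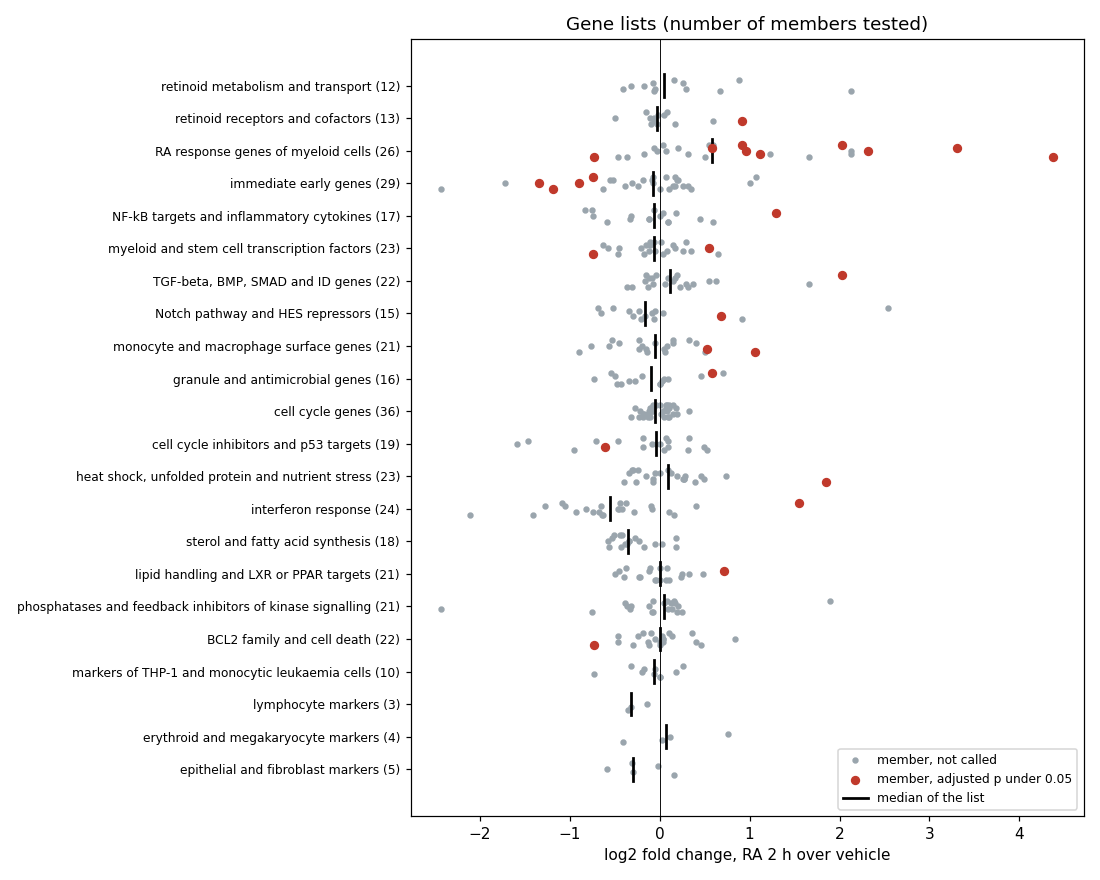
Log2 fold change after 2 h of RA over vehicle for the tested members of 22 gene lists, with the number tested in brackets. Red points were called, grey points were not, and the black bar is the list's median. The RA response list has its median at 0.58 and 8 called rises, and the 4 called immediate early genes lie left of 0.

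The later times of the course show how far each early change had gone. They use the same 8 vehicle arrays, so the values are given side by side. CD1D had log2 fold changes of 3.31 (2 h), 4.51 (6 h), 4.60 (16 h) and 4.73 (40 h). In the same order of times, CD38 was at 1.11, 2.50, 3.05 and 3.20, and NCF1 at 0.58, 1.95, 2.57 and 2.73. THBD stood at 2.32, 2.50, 2.88 and 2.68, and IRF1 at 1.55, 1.56, 1.60 and 1.71. ID1 was at 2.03, 1.65, 0.69 and 0.83. Thus CD38 and NCF1 stood much lower at 2 h than later, IRF1 stayed between 1.55 and 1.71, and ID1 had its highest estimate at 2 h, a difference from 6 h that did not pass the test. KLF6 was at -1.19, -0.61, -0.09 and -0.04, and FOSL2 at -1.34, -1.23, -0.80 and -1.05.

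The direct contrast of 2 h against 6 h tested the step between these times, with 2 arrays each. Of 12502 genes, 9 (0.072%) were higher and 37 (0.296%) lower at 2 h than at 6 h. Of the 84 genes that rose at 2 h, 18 were lower at 2 h than at 6 h and 0 were higher, and of the 24 that fell, 0 differed in either direction (limma). Genes chosen for their change at 2 h tend to have estimates that are too large at 2 h, so a fading is more easily seen than a further rise. The largest steps were of IL31RA, a cytokine receptor (116 and 155 units at 2 h, log2 difference from 6 h of -1.84), ITGA6 (-1.58), FGR (-1.54), NAPSB (-1.47), a transcribed pseudogene whose signal may include its parent gene, and POR, the electron donor of cytochromes P450 (-1.44). The adjusted p of these 5 ran up to 0.011. IL31RA and POR had themselves risen at 2 h by 1.24 ± 0.20 and 0.85 ± 0.16, calls that were lost without RA replicate 2 (adjusted p = 0.161 and 0.198) and, for POR, without replicate 1 (0.0731). Against 16 h, 32 of the 84 rises were lower at 2 h and 0 higher, beside 2.74% and 2.35% of all genes, and 13 of the 24 falls were lower at 2 h than at 16 h and 0 higher.

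**Figure D4:**
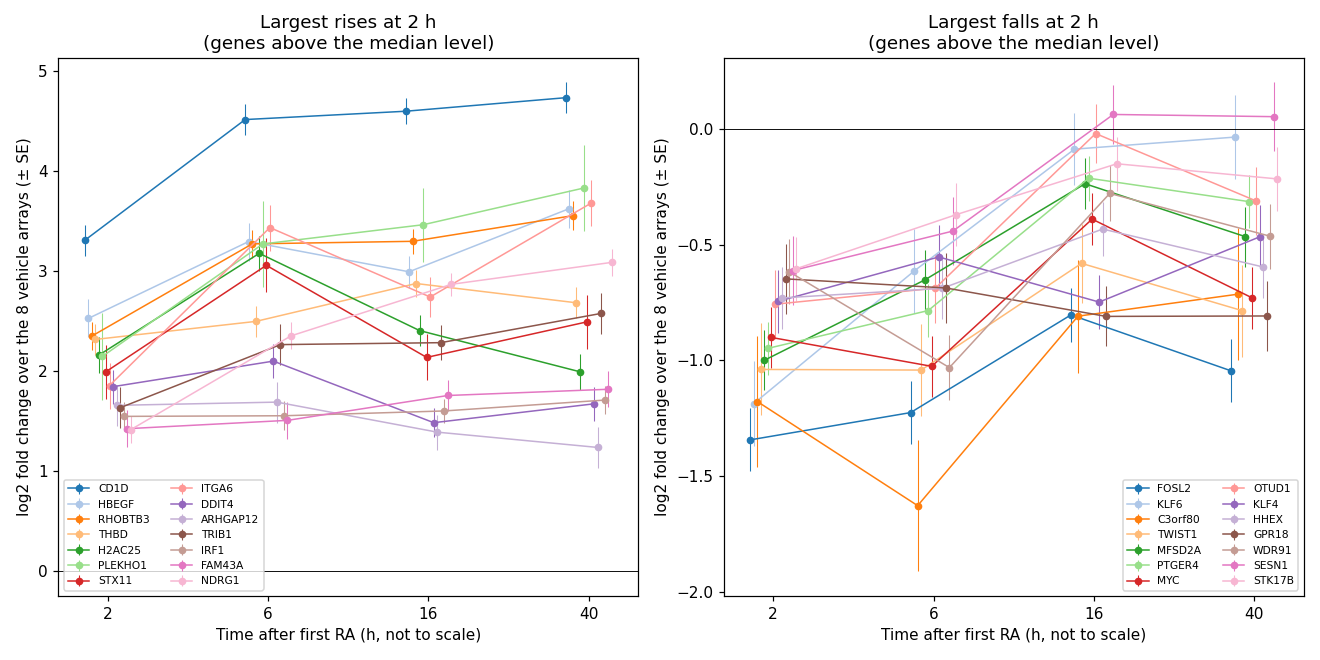
Log2 fold change over the 8 vehicle arrays (± SE) at 2, 6, 16 and 40 h of RA for the same 14 rises (left) and 14 falls (right) as in the plot of levels by array, which leaves out dimmer genes. All 4 times share the vehicle arrays, and the time axis is not to scale. CD1D moves to 4.73 at 40 h, ARHGAP12 and DDIT4 stay near their 2 h level, and KLF6 and SESN1 are close to 0 at 16 h.

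Arrays of the first experiment that did not enter the time course, and whose titles carry lower record numbers, gave a separate view of the same genes. They held 3 wells after 40 h of RA, with RA added again at 16 h, and 3 vehicle wells harvested at 40 h. There 252 genes (2.02%) were higher and 195 (1.56%) lower after RA. Of the 84 genes that rose at 2 h, 81 had the same sign and 64 were called higher, which is 76.2% of the 2 h list and 25.4% of the 40 h list. Of the 24 that fell, 21 had the same sign and 7 were called lower, 29.2% of the 2 h list and 3.59% of the 40 h list. None was called in the opposite direction. All 3 RA arrays lay beyond all 3 vehicle arrays in the direction of the 2 h change for 72 of the rises (85.7%) and 12 of the falls, where 8.63% of all genes lay above and 7.4% below. CD1D was at 4.56, RHOBTB3 at 3.67 and THBD at 2.95 on the log2 scale in these arrays. The early rises that were not called there included ID1 (0.06, adjusted p = 0.99), DDIT4 (-0.61, 0.57) and CEBPB (-0.18, 0.77). These comparisons differ in time as well as in arrays.

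**Figure D5:**
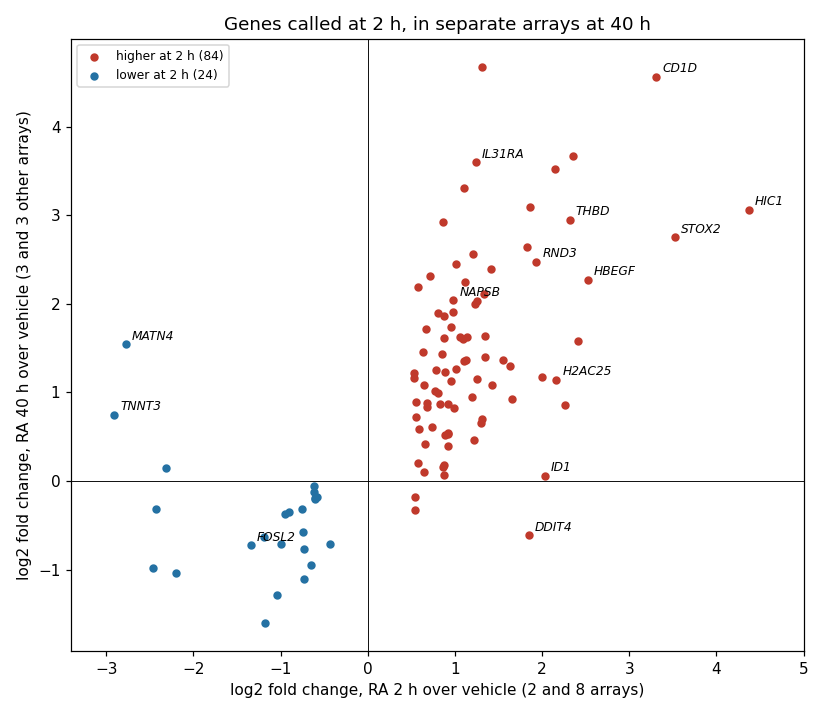
Log2 fold change of the 108 genes called at 2 h (horizontal axis) against their log2 fold change after 40 h of RA over vehicle in 6 other arrays (vertical axis). Red points rose and blue points fell at 2 h. Of the 84 red points 81 lie above 0, with DDIT4 lowest, and of the 24 blue points 21 lie below 0.

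The choice of vehicle arrays affected the counts. Between vehicle at 40 h and at 16 h no gene was called (limma; 977 genes had an unadjusted p under 0.05). Against the 5 vehicle arrays of 16 h alone, 59 genes were higher and 12 lower after RA, and these were all among the 84 and 24. Against the 3 vehicle arrays of 40 h alone, the counts were 205 and 144. Each of the 108 genes had the same sign against either set. For 107 of them this had to be so, since both RA arrays lay beyond every vehicle array, so it adds no support. Leaving out an RA array lowered the counts to 39 and 12 (without replicate 1) or 34 and 10 (without replicate 2), and 29 rises and 3 falls, FOSL2, PTGER4 and MFSD2A, were called without each of the 10 arrays in turn.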

How the data were processed

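RNA from 33 wells was hybridised to Affymetrix HG-U133 Plus 2 arrays, and signals came from GCOS, per the submitters' processing notes. Its version, settings and scaling target are not given in the sources used here. Deposited log2 values are centred on each array's median, as read from the values. Signals recovered from them were multiples of 0.1 units, with a 2% trimmed mean of 150 on each array.

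Of 54675 probe sets, 41091 had a single gene, which gave 19775 genes. Each gene took its brightest probe set, and 12502 genes above the median level of all probe sets were tested. Values were centred again on the median tested gene of each array. The 17 time-course arrays were fitted with limma 3.58.1 (R 4.3.3; lmFit, eBayes with an intensity trend, 12 residual degrees of freedom), and p-values were adjusted over all tested genes by Benjamini-Hochberg. The number of arrays limits the precision. On data simulated for the 2 h comparison over 12502 genes, 34 and 28 of 50 genes changed by 1 and -1 on the log2 scale were called, 44 and 45 of 50 changed by 2 and -2, and 5 of 12302 unchanged genes. The simulation drew genes independently from normal distributions. It held no difference between vehicle harvest times and no lower limit to the signal, so error rates on the real arrays may differ. Figures were drawn with Python 3.11.15.

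The comparison, gene lists and naming rules were chosen with earlier results of these data known. Named were the 14 largest called rises and falls without overlap whose higher group averaged (over log2 values) at least the level of the median tested gene, up to 4 called members of each of 22 lists (445 of 495 distinct members had a probe set), 15 RA-related genes, and the 5 largest differences each way between 2 h and 6 h. No called gene was higher at 2 h than at 6 h. The scale, filter, probe set rule, vehicle arrays, moderation, blocks and left-out arrays were varied. The separate arrays had a limma fit of their own, in which 6 arrays of TNF-treated wells shared the estimate of spread and gave no values. Replicate numbers were left out of the main fit. The deviations of RA and vehicle arrays from their group means correlated between -0.07 and 0.07, for same-numbered and other arrays. With only 2 RA arrays these deviations mirror each other, so the values cannot show whether replicate numbers pair the samples.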

Additional observations from a re-analysis of the deposited data

Results flagged for a closer look

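A group of 5 named genes had a vehicle array that stood apart from the other 7, out of 60 genes and measures examined, where chance flags about 1 in 20. All were the lowest of their group and all were harvested at 16 h. STX11 was at 26.4 units in replicate 5, IRF1 at 163 in replicate 4, MFSD2A at 928 in replicate 1, HHEX at 273 in replicate 2 and WDR91 at 271 in replicate 3. STX11, IRF1, MFSD2A and HHEX kept their 2 h call without each vehicle array, while WDR91 lost it without 4 of them.

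The change over vehicle at 2 h differed from that at 6 h, by the direct contrast, for 12 named genes, each lower at 2 h. The log2 differences, 2 h minus 6 h, were -1.84 for IL31RA, -1.58 for ITGA6, -1.54 for FGR, -1.47 for NAPSB, -1.44 for POR, -1.39 for CD38, -1.37 for NCF1, -1.21 for CD1D, -1.02 for H2AC25, -0.94 for NDRG1, -0.92 for RHOBTB3 and -0.81 for NOTCH2.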

How the results depend on the processing

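The 84 rises and 24 falls stayed within 1.5 times of their count on the recovered GCOS scale, with quantile normalization, with no or a stricter filter, with robust moderation and with the run of record numbers as a block. Falls numbered 3 on the deposited values, 10 with the median of all probe sets and 12 against vehicle at 16 h. Against vehicle at 40 h there were 205 rises and 144 falls, and with the 2 h and vehicle arrays alone 51 and 13. The replicate block gave 55 rises and 6 falls, and whether replicate numbers pair the samples is not known. Leaving out 1 array gave 34 to 93 rises and 10 to 30 falls. The cause of these shifts was not tested.

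Between 2 h and 6 h, the 9 higher and 37 lower genes became 1 and 14 on the deposited values, 0 and 17 with the median of all probe sets, 17 and 62 with vehicle at 40 h only and 3 and 19 without an intensity trend, and the higher count was 4 with vehicle at 16 h only and 4 with the replicate block. Without single arrays the counts ran from 0 to 12 and from 11 to 47. Between the vehicle harvest times, the 0 calls became 1 lower with the median of all probe sets, 1 lower without an intensity trend, and 0 to 2 higher without single arrays. Of 988 values of the 43 called named genes under these alternatives, 825 kept their call, 163 lost it and 0 changed sign. Where arrays were only left out, no sign could change, since both RA arrays of these genes lay beyond every vehicle array.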
